A study of Mus musculus with 6 samples.

Results

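Glycolysis, glycogen turnover and the transport of glucose and lactate were followed through 33 genes in gastrocnemius, the large calf muscle, of mice lacking Tmem182. Tmem182 encodes a transmembrane protein made mainly in skeletal and heart muscle. The genes were taken by symbol from tables of 19458 genes, and all 33 were found in each of the 6 libraries: 19 glycolytic enzymes, 10 glycogen enzymes and regulators, and 4 transporters. The knockout mice carried the genotype tmem182-/- (3 libraries) and were compared with wild-type mice (3 libraries), all on the C57BL/6 strain and 9 weeks old; the labels name no treatment, sex or form of the deletion. Nothing in the labels says that each library came from its own mouse, so the p-values measure the spread between these libraries, which may be technical. The source labels of knockout libraries 2 and 3 name tmem183 and tmem184 in place of tmem182, while the genotype label names tmem182 for all 3.

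Tmem182 itself was at 6.23, 4.30 and 2.17 FPKM among knockouts versus 147.48, 121.39 and 120.97 FPKM among wild types (log2 fold change -5.02, SE 0.30, adjusted p = 0.00391 by edgeR, 0.0716 when knockout library 2 was left out and 0.0529 when wild-type library 3 was). FPKM, the unit of the levels given here, counts fragments scaled by transcript length and by sequencing depth. The labels do not say which stretch of the gene was deleted. The protocol label speaks of cultured myoblasts and myotubes, but the tissue label gives skeletal muscle, and 8 genes that define mature muscle (Acta1, Ckm, Ttn, Neb, Ryr1, Cacna1s, Dmd and Myot) summed to 42448 to 52366 FPKM in the knockout and 49186 to 56628 FPKM in wild type. Totals were 16212341 to 17986755 expected counts in the knockout libraries and 17617775 to 18672630 in the wild-type libraries. Knockout library 1 stood apart from the other 5. Its summed FPKM of 15 fast fibre genes was 77192, against 102008 to 115743 in the others, its sum of 8 macrophage markers was 73.2, against 19.9 to 32.1, and its sum of 8 adipocyte markers was 322, against 129 to 203.

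Glycolysis splits glucose into pyruvate in the cytosol and yields ATP without oxygen, and lactate dehydrogenase turns the pyruvate into lactate when it runs faster than the mitochondria can use it. Fast-twitch fibres, which make up most of the mouse gastrocnemius, hold high levels of these enzymes and of glycogen, the branched glucose store that glycogen phosphorylase breaks down during contraction. Slow and oxidative fibres take up lactate and burn it, and for this they use other isozymes and another lactate transporter.

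Tested by edgeR's quasi-likelihood method over all 12774 genes with enough counts, none of the 33 genes passed an adjusted p of 0.05 in either direction. Among all tested genes 0.00783% passed, which was Tmem182 alone, and the smallest adjusted p among the 33 was 0.994. At an unadjusted p under 0.05 the count was 0 of 33, where 3.55% of all tested genes passed (2.07% higher and 1.48% lower in the knockout). DESeq2's Wald test called 0 of the 33 after adjustment, where 0.047% of all genes passed. Without adjustment it passed 1 of the 33, Ugp2, where 2.75% of all genes passed. Over the 14 alternative fits, DESeq2's among them, 0 to 2 of the 33 passed without adjustment, where 306 to 1009 of all genes did. Hk1, Pfkfb1, Pfkfb3, Pfkfb4, Ugp2 and Slc16a1 each passed in 1 or 2 of these fits. The knockout and wild-type libraries did not overlap in TMM-scaled CPM (counts relative to the scaled library total) for 2 of the 33, Ugp2 and Pfkfb1, both higher in the knockout. That was 6.06%, against 9.18% of all genes tested (4.67% higher and 4.51% lower). Medians of the log2 fold change, knockout over wild type, were -0.14 for the glycolytic enzymes, -0.03 for the glycogen genes and 0.10 for the transporters, beside 0.00 over all genes tested. Fold changes come from counts scaled by TMM, which corrects for library composition. Scaled by library totals alone, the median over all genes was 0.08 and those of the 3 groups were -0.09, 0.04 and 0.17, so that the glycogen median changed sign. Each change is set out with its interval in the plot of fold changes.

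**Figure D1:**
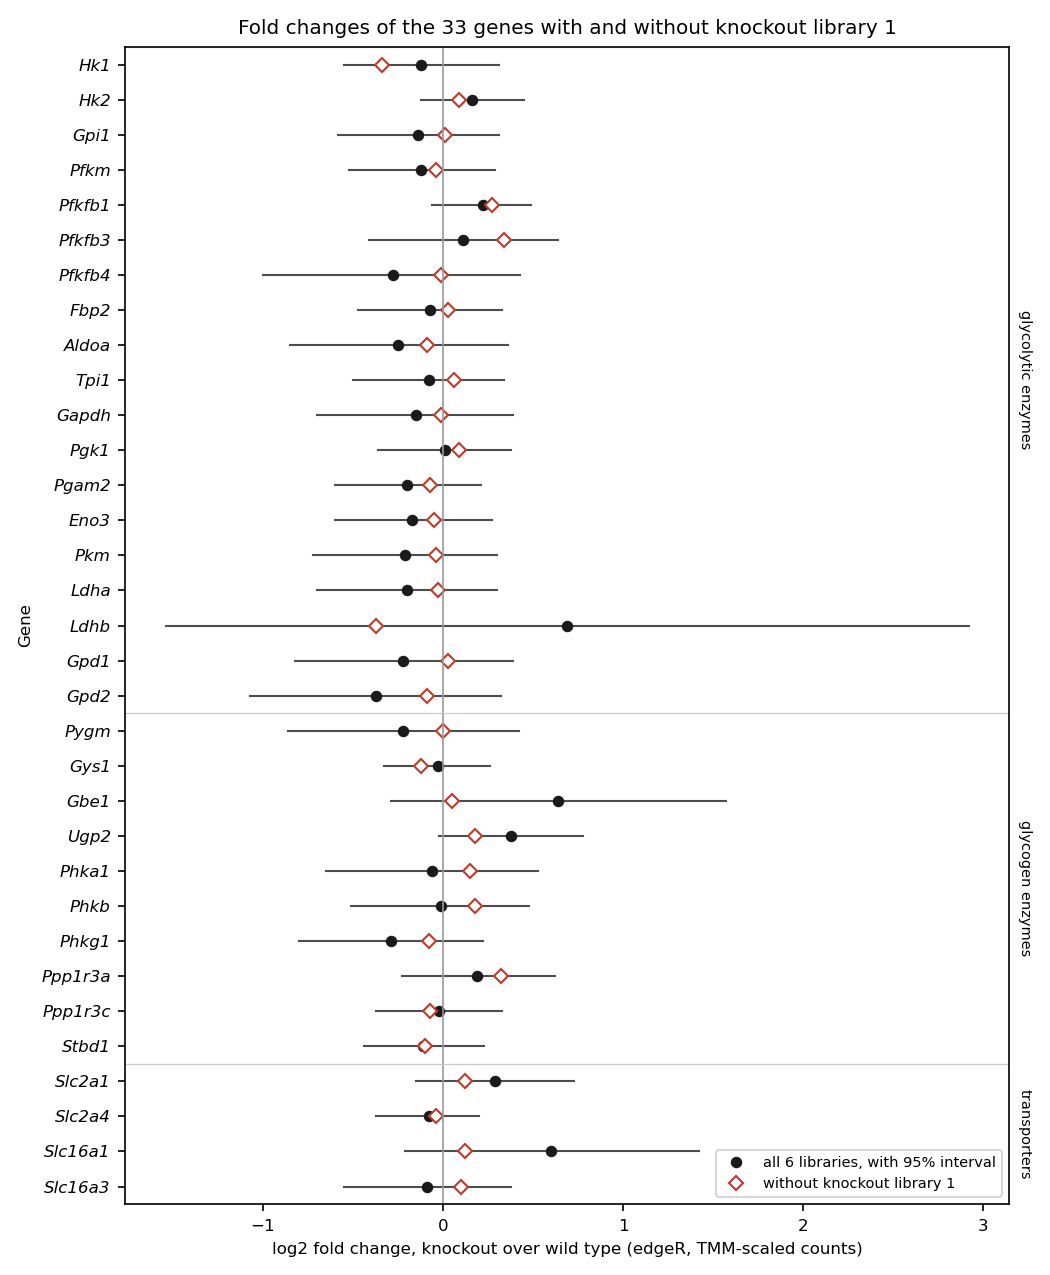
The log2 fold change (knockout over wild type, x axis) of each of the 33 genes (y axis) is drawn as a black point with its 95% CI from all 6 libraries, and as an open diamond from the fit without knockout library 1. All 33 intervals include 0, and the points of Ldhb, Gbe1 and Slc16a1 at 0.69, 0.64 and 0.60 move to -0.37, 0.05 and 0.12 without that library.

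Ldhb (a lactate dehydrogenase subunit), Gbe1 (the glycogen branching enzyme) and Slc16a1 (a lactate transporter) had the widest ranges of the 33 genes in TMM-scaled CPM, 4.81, 1.99 and 1.70 on the log2 scale, and were highest in knockout library 1 and lowest in wild-type library 2, as was Ugp2. In TMM-scaled CPM, 20 of the 33 genes were lowest in knockout library 1, among them Pgam2 (muscle phosphoglycerate mutase) and Pygm (muscle glycogen phosphorylase). The promoter windows of Ldhb, Gbe1, Slc16a1, Pgam2 and Pygm are printed for that difference in pattern, and that of Ugp2 is not. A link between motifs and pattern was not tested. Each window runs from 250 bases before to 50 bases after the RefSeq start on GRCm38.p6, 5′ to 3′ on the gene's strand, with matches in capitals. For these windows 3 motifs were searched on both strands: GGGCGG (the GC box bound by Sp1), ACGTG (the core bound by HIF factors) and the MEF2 consensus of muscle promoters; in Slc16a1 a pair of ACGTG matches on opposite strands overlap in 1 run.
Ldhb (chr6:142507908-142508207, minus): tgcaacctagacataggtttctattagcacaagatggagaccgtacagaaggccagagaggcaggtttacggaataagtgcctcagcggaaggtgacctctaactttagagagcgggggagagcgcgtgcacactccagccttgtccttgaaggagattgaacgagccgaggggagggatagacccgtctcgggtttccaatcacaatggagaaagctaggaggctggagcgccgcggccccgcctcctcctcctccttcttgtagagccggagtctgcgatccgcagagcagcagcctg
Gbe1 (chr16:70313699-70313998, plus): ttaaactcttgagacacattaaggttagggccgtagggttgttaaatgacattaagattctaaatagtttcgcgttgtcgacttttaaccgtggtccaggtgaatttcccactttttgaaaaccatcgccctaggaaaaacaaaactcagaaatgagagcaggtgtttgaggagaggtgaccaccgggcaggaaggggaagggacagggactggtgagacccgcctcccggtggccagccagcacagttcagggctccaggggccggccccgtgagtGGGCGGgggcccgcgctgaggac
Slc16a1 (chr3:104638414-104638713, plus): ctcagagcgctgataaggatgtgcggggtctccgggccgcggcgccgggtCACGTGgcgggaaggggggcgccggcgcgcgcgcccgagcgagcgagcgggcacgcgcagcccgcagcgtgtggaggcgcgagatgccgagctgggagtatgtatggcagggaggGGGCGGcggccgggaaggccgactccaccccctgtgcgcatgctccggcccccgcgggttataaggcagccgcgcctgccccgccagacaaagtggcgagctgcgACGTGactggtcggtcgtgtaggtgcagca
Pgam2 (chr11:5803747-5804046, minus): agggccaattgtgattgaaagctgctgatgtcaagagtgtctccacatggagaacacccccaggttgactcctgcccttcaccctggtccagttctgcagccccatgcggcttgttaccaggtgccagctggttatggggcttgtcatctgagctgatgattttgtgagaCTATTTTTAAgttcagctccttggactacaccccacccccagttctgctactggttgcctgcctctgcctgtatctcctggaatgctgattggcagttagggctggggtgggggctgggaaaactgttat
Pygm (chr19:6384158-6384457, plus): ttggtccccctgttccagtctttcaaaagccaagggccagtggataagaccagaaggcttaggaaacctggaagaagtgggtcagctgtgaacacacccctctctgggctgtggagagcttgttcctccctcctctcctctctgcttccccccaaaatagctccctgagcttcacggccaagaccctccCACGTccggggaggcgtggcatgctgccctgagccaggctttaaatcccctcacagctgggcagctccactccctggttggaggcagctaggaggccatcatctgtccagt
The MEF2 match of Pgam2 begins 80 bases before the start, and Ldhb held none of the 3 motifs in this window. Only these spellings were searched, and GCGTG, which the Ldhb window holds, was not among them. Of the 33 genes, 31 had a window in the RefSeq table (all but Slc2a4 and Gpd1), with 45 starts. ACGTG was present in 44.4% of these 45 windows (20 windows, from 17 genes) and in 19.6% of 32817 windows of all genes. GGGCGG was present in 51.1% of the 45 (23 windows, 20 genes) and 35.6% of all windows. The MEF2 consensus was present in 6.67% of the 45 (3 windows, 3 genes) and 3.19% of all. A gene with several starts counts more than once in these shares. The windows of all genes were not matched for GC content, and no difference in share was tested. GC content ran from 53.3% in Pgam2 and 54.3% in Gbe1 to 73.7% in Slc16a1.

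Hexokinase opens the pathway by trapping glucose in the cell as glucose-6-phosphate. Hk2, the insulin-responsive muscle hexokinase, was at 92.41, 68.35 and 61.15 FPKM among knockouts versus 61.68, 64.07 and 60.87 FPKM among wild types. Knockout library 1 was the highest of the 6 and the groups overlapped. This gave a log2 fold change of 0.16 (SE 0.12, 95% CI -0.12 to 0.45, unadjusted p = 0.216, adjusted p = 0.994 by edgeR), or 0.09 without knockout library 1. Hk1, the widely expressed hexokinase, was far less abundant, at 3.60 ± 1.32 FPKM in knockouts versus 3.65 ± 0.58 FPKM in wild types (SD, n = 3 each), with a log2 fold change of -0.12 (SE 0.18).

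Glucose-6-phosphate isomerase (Gpi1) and phosphofructokinase (Pfkm), the committed step, carry the sugar on. Gpi1 was at 515 ± 41.8 FPKM in knockouts versus 548 ± 51.0 FPKM in wild types (SD, n = 3 each). Pfkm was at 1379.37, 1308.61 and 1331.58 FPKM among knockouts versus 1330.48, 1537.38 and 1305.04 FPKM among wild types, and supplied 99.4% to 99.8% of phosphofructokinase FPKM in every library. Their log2 fold changes were -0.14 (SE 0.19) and -0.12 (SE 0.17). They were 0.01 for Gpi1 and -0.04 for Pfkm when knockout library 1 was left out.

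Bifunctional PFKFB enzymes make and remove fructose-2,6-bisphosphate, the strongest activator of phosphofructokinase. Pfkfb1 was at 30.05, 29.24 and 24.33 FPKM among knockouts versus 25.45, 20.12 and 21.65 FPKM among wild types. In FPKM knockout library 3 lay below wild-type library 1. In TMM-scaled CPM the same libraries were at 43.5 and 43.1, so that the groups separated by that margin alone. Its fitted log2 fold change was 0.22 (SE 0.12, 95% CI -0.06 to 0.49, unadjusted p = 0.112, adjusted p = 0.994 by edgeR), and it was 0.10 without knockout library 2.

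Pfkfb3, an isoform whose kinase activity dominates, was the most abundant of the family, at 100.20, 146.90 and 137.79 FPKM among knockouts versus 117.37, 108.20 and 120.91 FPKM among wild types. Knockout library 1 was the lowest of the 6 and the other knockout libraries were the highest. Its log2 fold change was 0.11 (SE 0.22), 0.34 without knockout library 1 and -0.04 without knockout library 2. Pfkfb4 ran from 9.82 FPKM in knockout library 1 to 21.15 FPKM in wild-type library 2, with a log2 fold change of -0.28 (SE 0.31), or -0.01 without knockout library 1. Fbp2, the muscle fructose-1,6-bisphosphatase that works against phosphofructokinase, was at 29.9 ± 2.01 FPKM in knockouts versus 30.0 ± 4.23 FPKM in wild types (SD, n = 3 each). Its log2 fold change was -0.07 (SE 0.17, 95% CI -0.47 to 0.33).

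Aldoa and Gapdh were the 2 most abundant of the 33 genes in every library. Aldoa, aldolase A, was at 13165.74, 15143.47 and 15480.86 FPKM among knockouts versus 14678.06, 18900.96 and 16552.66 FPKM among wild types. Gapdh, which makes the NADH of the pathway, was at 10074.17, 10968.65 and 11526.43 FPKM among knockouts versus 10770.22, 13053.32 and 11056.11 FPKM among wild types. For both genes knockout library 1 was the lowest and wild-type library 2 the highest, and the log2 fold changes were -0.25 (SE 0.26) for Aldoa and -0.15 (SE 0.23) for Gapdh, or -0.09 and -0.01 without knockout library 1. Eno3, the muscle enolase, was at 3166 ± 216 FPKM in knockouts versus 3414 ± 82.4 FPKM in wild types (SD, n = 3 each). Pgam2, the muscle phosphoglycerate mutase, was at 2334 ± 188 FPKM in knockouts versus 2581 ± 129 FPKM in wild types, and Pkm, the pyruvate kinase of muscle, at 1611 ± 178 FPKM in knockouts versus 1802 ± 176 FPKM in wild types (SD, n = 3 each).

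Triose phosphate isomerase (Tpi1) was at 1255 ± 120 FPKM in knockouts versus 1282 ± 29.6 FPKM in wild types, and phosphoglycerate kinase (Pgk1) at 447 ± 20.1 FPKM in knockouts versus 426 ± 50.5 FPKM in wild types (SD, n = 3 each). Log2 fold changes were -0.17 (SE 0.19) for Eno3, -0.20 (SE 0.17) for Pgam2, -0.21 (SE 0.22) for Pkm, -0.08 (SE 0.18) for Tpi1 and 0.01 (SE 0.16) for Pgk1. The interval for Pgk1 ran from -0.36 to 0.38, and that for Pkm from -0.72 to 0.30, so that a knockout level as low as 0.605-fold of wild type was within the interval for Pkm. Without knockout library 1 the values for these 5 genes, in the same order, were -0.05, -0.07, -0.04, 0.06 and 0.09. Muscle isozymes made up nearly all of these steps: Eno3 held 97.7% to 97.9% of enolase FPKM and Pgam2 99.4% to 99.7% of mutase FPKM over the 6 libraries. In log2 TMM-scaled CPM, not FPKM, the SD of Pgam2 was 0.27 among the knockout libraries and 0.05 among the wild-type libraries. That of Eno3 was 0.24 among the knockout and 0.12 among the wild-type libraries.

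Lactate dehydrogenase interconverts pyruvate and lactate and is built from A and B subunits. Ldha, the subunit that favours lactate formation, was at 1587.13, 1792.49 and 2061.86 FPKM among knockouts versus 1911.40, 2144.30 and 1995.59 FPKM among wild types (log2 fold change -0.20, SE 0.21, or -0.03 without knockout library 1). Ldhb, the heart-type subunit that favours lactate use, was at 314.22, 90.90 and 27.91 FPKM among knockouts versus 131.60, 8.93 and 98.39 FPKM among wild types. Ldhb thus spanned 35.2-fold from wild-type library 2 to knockout library 1, the widest range of the 33 genes, and the groups overlapped throughout. In log2 TMM-scaled CPM its SD was 1.57 within the knockout and 2.09 within wild type. On the log2 scale the change came to 0.69 (SE 0.96, 95% CI -1.54 to 2.92, unadjusted p = 0.493, adjusted p = 0.994 by edgeR), it was -0.37 when knockout library 1 was left out and 0.16 when wild-type library 2 was, and the direction also turned with limma-voom quality weights, at -0.14.

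The glycerol phosphate shuttle carries the electrons of glycolytic NADH into mitochondria. Gpd1, its cytosolic enzyme, was at 255.68, 352.27 and 420.99 FPKM among knockouts versus 375.99, 434.04 and 359.77 FPKM among wild types. Gpd2, its mitochondrial partner, was at 30.96, 50.51 and 55.45 FPKM among knockouts versus 50.90, 69.72 and 53.25 FPKM among wild types. In both genes knockout library 1 was lowest and wild-type library 2 highest, and the groups overlapped. The log2 fold changes were -0.22 (SE 0.26) for Gpd1 and -0.37 (SE 0.30, 95% CI -1.07 to 0.32, unadjusted p = 0.247, adjusted p = 0.994 by edgeR) for Gpd2, and 0.03 and -0.09 without knockout library 1.

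**Figure D2:**
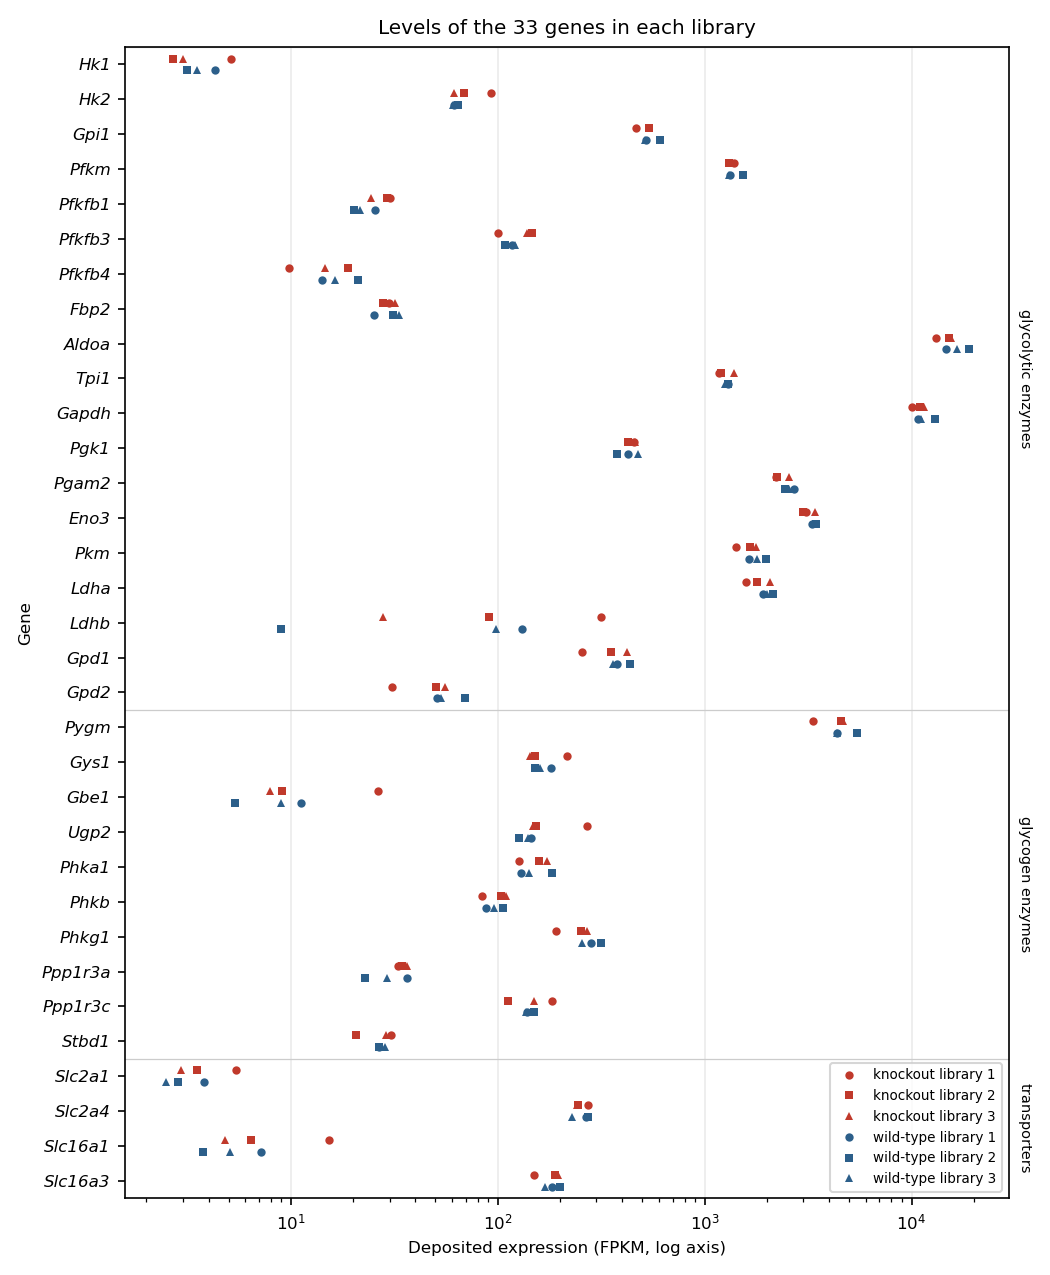
Deposited FPKM (log axis, x) of each of the 33 genes (y axis) in the 3 knockout libraries (red, upper row of each gene) and the 3 wild-type libraries (blue, lower row), with circles, squares and triangles for libraries 1, 2 and 3. The red and blue points overlap for every gene but Ugp2, and Ldhb is spread from 8.93 to 314.22 FPKM.

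Glycogen is built from UDP-glucose. Ugp2, the pyrophosphorylase that makes UDP-glucose, was at 269.36, 153.85 and 147.91 FPKM among knockouts versus 143.97, 126.82 and 140.26 FPKM among wild types. All 3 knockout libraries lay above all 3 wild-type libraries, in FPKM as in TMM-scaled CPM. Knockout library 1 was far above the rest and wild-type library 2 was the lowest. This gave a log2 fold change of 0.38 (SE 0.17, 95% CI -0.02 to 0.78, a 1.30-fold higher level), with the smallest unadjusted p of the 33 at 0.0575 and an adjusted p of 0.994 by edgeR's quasi-likelihood test. DESeq2's Wald test gave an unadjusted p of 0.0301 and an adjusted p of 1.0. It was 0.18 without knockout library 1, and between 0.18 and 0.48 in the 14 alternative fits, with an adjusted p of 0.676 to 1.0. Ugp2 lies on chromosome 11 from 21321138 to 21371201 on the minus strand of GRCm38. An antisense gene, Gm12043, and the microRNA gene Mir1933 overlap it, and the sources used here do not give whether counting used strand.

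Gys1, the muscle glycogen synthase, was the steadiest gene of the glycogen group in TMM-scaled counts, with a range of 0.27 on the log2 scale over the 6 libraries. Its FPKM was 216.10, 151.02 and 142.84 among knockouts versus 181.81, 150.85 and 159.38 among wild types. Its fitted log2 fold change was -0.03 (SE 0.13, 95% CI -0.33 to 0.26), or 0.05 when scaled by library totals alone. Gbe1, the branching enzyme, was at 26.41, 9.07 and 7.91 FPKM among knockouts versus 11.14, 5.35 and 8.97 FPKM among wild types. As for Ldhb, knockout library 1 was highest and wild-type library 2 lowest. On the log2 scale the change came to 0.64 (SE 0.40, 95% CI -0.29 to 1.57, unadjusted p = 0.152, adjusted p = 0.994 by edgeR), and 0.05 without knockout library 1. Ugp2 and Gbe1 were highest in the library that also had the highest adipocyte and macrophage sums, and the part of those cells in their values was not tested.

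Pygm, the muscle glycogen phosphorylase whose loss in people causes McArdle disease, was at 3333.30, 4549.01 and 4651.59 FPKM among knockouts versus 4366.53, 5439.70 and 4378.66 FPKM among wild types. It was the most abundant gene of the glycogen group in each library. Its log2 fold change was -0.22 (SE 0.27), and without knockout library 1 it was -0.00. Phosphorylase kinase switches this enzyme on. Its catalytic subunit gene Phkg1 was at 192.16, 252.29 and 270.27 FPKM among knockouts versus 280.79, 316.71 and 254.52 FPKM among wild types (log2 fold change -0.29, SE 0.22, 95% CI -0.80 to 0.22, unadjusted p = 0.226, adjusted p = 0.994 by edgeR). Without knockout library 1 the log2 fold change was -0.08.

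The regulatory subunit genes Phka1 and Phkb averaged 153 ± 24.1 and 99.5 ± 13.6 FPKM among knockouts versus 152 ± 28.3 and 96.7 ± 9.28 FPKM among wild types (SD, n = 3 each). Their log2 fold changes were -0.06 (SE 0.25) and -0.01 (SE 0.21); without knockout library 1 both were above 0, at 0.15 and 0.18, and so were they once the slow fibre level was a covariate, at 0.07 each. Targeting subunits bring protein phosphatase 1 to glycogen. Ppp1r3a, the muscle form, was at 33.01, 34.63 and 36.54 FPKM among knockouts versus 36.33, 22.93 and 29.03 FPKM among wild types, with a log2 fold change of 0.19 (SE 0.18). Ppp1r3c was at 148 ± 34.8 FPKM in knockouts versus 142 ± 6.74 FPKM in wild types (SD, n = 3 each), and its log2 fold change of -0.02 (SE 0.15) became 0.06 when scaled by library totals alone. Stbd1, a glycogen-binding protein linked to autophagy of glycogen, was at 26.7 ± 5.33 FPKM in knockouts versus 27.3 ± 1.06 FPKM in wild types (SD, n = 3 each, with a log2 fold change of -0.11, SE 0.14).

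Of each pair of transporters 1 was far more abundant than the other. Slc2a4, the insulin-regulated glucose transporter GLUT4, was at 271.96, 244.58 and 241.22 FPKM among knockouts versus 268.31, 273.06 and 228.68 FPKM among wild types. These values overlapped throughout, with a log2 fold change of -0.08 (SE 0.12, 95% CI -0.37 to 0.20, unadjusted p = 0.511, adjusted p = 0.994 by edgeR). Slc2a1, the basal glucose transporter GLUT1, was at 5.43, 3.50 and 2.94 FPKM among knockouts versus 3.81, 2.86 and 2.48 FPKM among wild types (log2 fold change 0.29, SE 0.19, 95% CI -0.15 to 0.73, unadjusted p = 0.171, adjusted p = 0.994 by edgeR). Without knockout library 1 the log2 fold change was 0.12. Endothelial cells and red cell precursors also use this transporter. The summed FPKM of 8 endothelial markers was 172, 105 and 76.5 among knockouts versus 129, 79.5 and 102 among wild types, and that of 7 red blood cell markers was 1896, 445 and 686 among knockouts versus 794, 1100 and 970 among wild types. Knockout library 1 was highest in both sums, as it was in Slc2a1, and the part of these cells in the Slc2a1 values was not tested.

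Slc16a3, the lactate exporter MCT4 of glycolytic fibres, was at 149.93, 189.93 and 195.39 FPKM among knockouts versus 182.89, 199.80 and 169.97 FPKM among wild types (log2 fold change -0.09, SE 0.20). Slc16a1, the transporter MCT1 through which oxidative fibres take lactate up, was at 15.24, 6.41 and 4.79 FPKM among knockouts versus 7.19, 3.77 and 5.05 FPKM among wild types. Knockout library 1 was again highest and wild-type library 2 lowest. This gave a log2 fold change of 0.60 (SE 0.35, 95% CI -0.21 to 1.42, unadjusted p = 0.125, adjusted p = 0.994 by edgeR), 0.12 without knockout library 1 and 0.85 without knockout library 3. Schwann cells carry MCT1 too, and the summed FPKM of 8 Schwann cell markers was 313, 50.9 and 89.8 among knockouts versus 206, 20.5 and 39.7 among wild types; their part in the Slc16a1 values, and that of adipocytes, was not tested.

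Ratios within a library compare paired genes free of library scaling, and 6 were tested. Ldhb over Ldha, as log2 of the FPKM ratio, was -2.34, -4.30 and -6.21 among knockouts versus -3.86, -7.91 and -4.34 among wild types, a difference of 1.09 between group means (two-sided exact permutation p = 0.6). Expressed as a share, Ldhb was 16.5%, 4.83% and 1.34% of lactate dehydrogenase FPKM in the knockout and 6.44%, 0.415% and 4.70% in wild type. Slc16a1 over Slc16a3 differed by 0.64 (exact permutation p = 0.5), and Slc16a1 held 9.23%, 3.26% and 2.39% of the pair in the knockout and 3.78%, 1.85% and 2.89% in wild type. The differences were 0.29 for Hk2 over Hk1 (exact permutation p = 0.3), -0.37 for Slc2a4 over Slc2a1 (p = 0.2), -0.16 for Gpd2 over Gpd1 (p = 0.2) and 0.22 for Gys1 over Pygm (p = 0.7). Adjusted over the 6 ratios the p-values were 0.6 to 0.7, and 3 against 3 libraries cannot give an exact p below 0.1. The plot of isozyme shares sets these beside the slow fibre level.

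**Figure D3:**
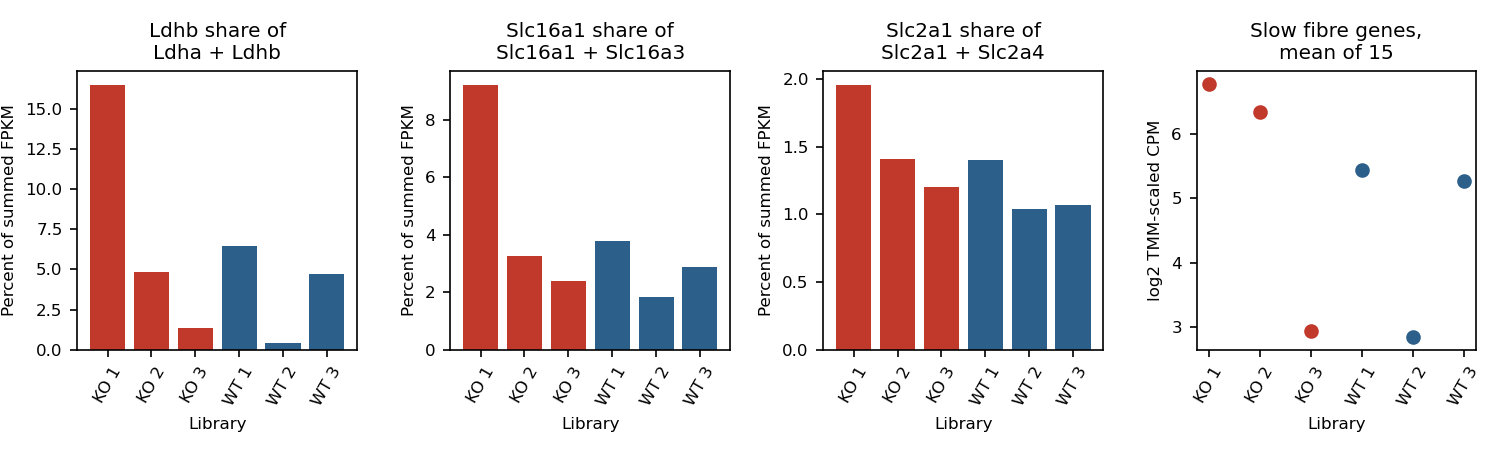
The first 3 panels give the share of Ldhb, Slc16a1 and Slc2a1 in the summed FPKM of each isozyme pair (percent, bars from 0), and the fourth the mean log2 TMM-scaled CPM of 15 slow fibre genes, for each knockout (KO, red) and wild-type (WT, blue) library. Knockout library 1 has the highest value in all 4 panels, and wild-type library 2 has the lowest Ldhb and Slc16a1 shares at 0.415% and 1.85%.

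The slow fibre genes, which mark type I fibres, had a mean log2 level of 6.78, 6.35 and 2.94 among knockouts versus 5.44, 2.84 and 5.27 among wild types. The 2 libraries lowest in this level, wild-type library 2 and knockout library 3, were also the 2 lowest in Ldhb, and knockout library 1 was highest in both. Knockout library 2 was the second in the slow fibre level but the fourth in Ldhb. Of the fast fibre genes, Myh1 and Myh2 also had their highest value in knockout library 1 and their lowest in wild-type library 2. Myh1 was at 1739.23, 309.17 and 231.37 FPKM among knockouts versus 867.29, 75.69 and 667.61 FPKM among wild types, the library order of Ldhb. Both were picked after their values were seen, and 13 of the 15 fast fibre genes were lowest in knockout library 1. The part of these fibres in the Ldhb values was not tested. In a bulk sample fewer fibres of a type and less RNA per fibre cannot be told apart. Once the slow fibre level was a covariate, the log2 fold changes of Ldhb, Gbe1, Slc16a1 and Ugp2 were 0.05, 0.36, 0.33 and 0.30, and 0 of the 33 genes passed.

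In TMM-scaled CPM knockout library 1 was the lowest of the 6 libraries for 14 of the 19 glycolytic enzymes, 4 of the 10 glycogen genes and 2 of the 4 transporters, or 60.6% of the 33, where it was lowest for 27.9% of all genes tested. In FPKM, which carries no TMM scaling, it was the lowest for 16 of the 33 and the highest for 11. In TMM-scaled CPM it was the highest for 8 genes, or 24.2% against 29.9% of all genes tested, namely Hk1, Hk2 and Ldhb among the enzymes, Gys1, Gbe1 and Ugp2 in the glycogen group, and Slc2a1 and Slc16a1. Wild-type library 2 was the highest of the 6 for 14 of the 33 genes (42.4%, against 22.4% of all genes tested). It was the lowest for 6 (18.2%, against 22.7%), and in FPKM these counts were 15 and 7. Shares over all genes were taken only in TMM-scaled CPM, so the FPKM counts of both libraries stand without a background. The fast fibre sum of knockout library 1 was also the lowest of the 6, although Myh1 and Myh2 were highest there. The part of fast fibres in these levels was not tested. Together the 33 genes took 6.95%, 7.75% and 8.13% of all counts among knockouts versus 7.73%, 9.16% and 8.05% among wild types. The plot of deviations shows these libraries as columns.

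**Figure D4:**
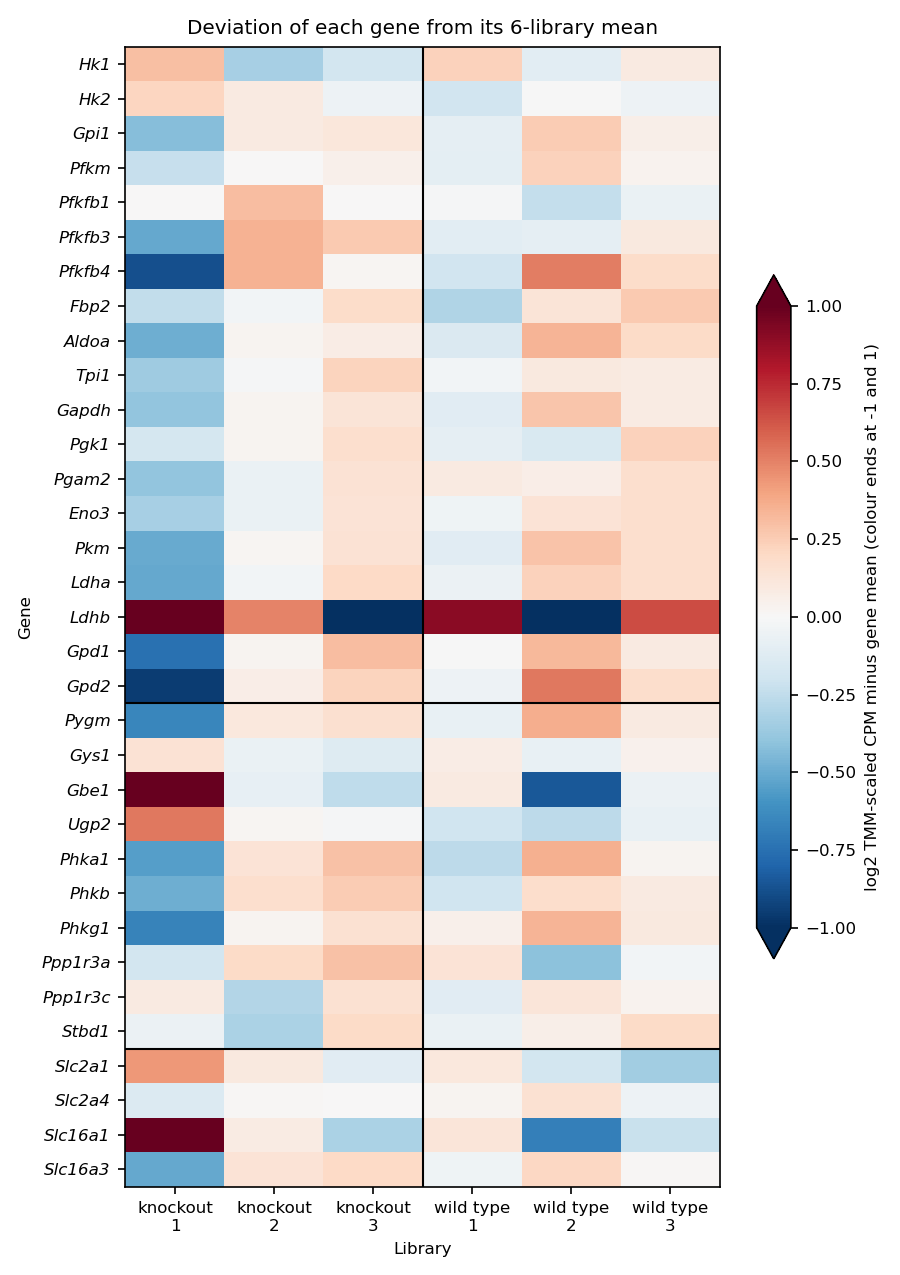
Colour gives the log2 TMM-scaled CPM of each gene (rows, in the order glycolytic enzymes, glycogen genes and transporters) in each library (columns) minus the gene's mean over the 6 libraries, with colours ending at -1 and 1. Knockout library 1 is the lowest in 20 of the 33 rows and wild-type library 2 the highest in 14, and 4 genes, Ldhb, Gbe1, Ugp2 and Slc16a1, run the other way in both.

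Other genes of the same pathways gave no call either. Of 22 further glycolytic isozymes 13 could be tested and 0 passed in either direction (median log2 fold change -0.13); Eno1, the widely expressed enolase, was the most abundant at 68.6 ± 5.47 FPKM in knockouts versus 77.9 ± 4.66 FPKM in wild types (SD, n = 3 each, with a log2 fold change of -0.25, SE 0.13). Bpgm, which makes the haemoglobin effector 2,3-bisphosphoglycerate, and the fructose-2,6-bisphosphatase Tigar gave log2 values (knockout over wild type) of -0.01 (SE 0.18) and -0.16 (SE 0.19). Of 20 further glycogen genes 18 were tested and 0 passed (median -0.01). At an unadjusted p under 0.05 by edgeR, 1 was higher and 1 lower in the knockout. Over all genes tested the shares at that threshold were 2.07% higher and 1.48% lower. Pgm2 (a phosphoglucomutase) and Gyg (the glycogenin primer) gave fitted values on the log2 scale, knockout over wild type, of -0.15 (SE 0.25) and 0.08 (SE 0.14).

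Of 13 further transport genes 7 were tested and 0 passed (median -0.04). Bsg, the basigin chaperone that brings MCT1 and MCT4 to the membrane, was at a mean of 419 FPKM among knockouts versus 415 FPKM among wild types (fold change on the log2 scale -0.04, SE 0.18). Slc2a8 and Slc2a3, other glucose transporters, gave log2 values (knockout over wild type) of -0.04 (SE 0.16) and -0.13 (SE 0.53). The malate-aspartate shuttle and related carriers, the other route for glycolytic NADH, had 8 of 8 genes tested and 0 passed, with all 8 fitted values above 0 (median 0.09). Mdh2, Got2 and Got1 had 0.01 (SE 0.14), 0.02 (SE 0.19) and 0.12 (SE 0.41), each below 0 without knockout library 1, at -0.02, -0.13 and -0.42. Among 15 regulators of glycolysis and glucose uptake 15 were tested and 0 passed (median -0.07). Txnip, an arrestin that limits glucose uptake, Rab10, a GTPase of GLUT4 vesicles, and Prkag3, the AMPK subunit of glycolytic fibres, had 0.03 (SE 0.14), 0.03 (SE 0.13) and -0.51 (SE 0.49).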

How the data were processed

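RNA-seq tables of 3 knockout and 3 wild-type gastrocnemius libraries were used, sequenced on a BGISEQ-500 instrument per the labels. The deposited read counts are expected counts, not normalized; 26.2% to 27.5% of them are not whole. The deposited levels are FPKM computed by the authors and given to 2 decimals. The tools named are RSEM 1.2.12, Bowtie2 2.2.5 and HISAT2 2.0.4, with the build GRCm38, per the submitters' processing notes; the sources used here do not give their roles, the annotation, read filters or strand handling. RSEM divides reads that fit several genes, so the 13 of the 33 genes with a count that is not whole (Gpi1, Pfkm, Pfkfb3, Pfkfb4, Aldoa, Gapdh, Eno3, Pygm, Gys1, Phka1, Phkg1, Slc2a4 and Slc16a3) are less certain. So are the 15 with an overlapping gene on the other strand (Hk1, Hk2, Gpi1, Pfkm, Pfkfb1, Pfkfb3, Tpi1, Gapdh, Gpd1, Gpd2, Gys1, Ugp2, Phkb, Phkg1 and Slc2a1). Genes with an overlap on their own strand are also less certain, namely Pfkm, Pfkfb3, Pkm, Ugp2, Phkb, Phkg1, Slc2a1 and Slc16a1.

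Counts were rounded, filtered with filterByExpr (minimum count 10; 12774 of 19458 genes kept, all 33 among them), scaled by TMM (factor 1.19 for knockout library 1, 0.933 to 1.04 for the others) and tested with edgeR 4.0.16 (R 4.3.3) by its two-sided quasi-likelihood test. P-values were adjusted by Benjamini-Hochberg over all genes, with a threshold of 0.05. The SE is the absolute log2 fold change over the square root of F. The ratios of paired genes were tested by exact permutation over the 6 libraries. The edgeR, limma-voom and DESeq2 tests were tried on simulated counts with a single dispersion and no outlying library, unlike these data. The ratio test and the slow fibre covariate were not part of that trial. Every pair of libraries differed beyond counting noise (lowest chi-square per degree of freedom 13.6). Positions are from GENCODE M21 on GRCm38; promoter sequences are from RefSeq, GRCm38.p6.

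The 33 genes and all lists were chosen with earlier results of these data known. All 33 were described, with p-values for the 3 smallest p per group, for genes whose groups did not overlap and, outside that rule, for Ldhb, chosen after its values were seen; of each further list the 3 tested genes with the highest mean FPKM were named, except 1 glycogen gene that is not reported here. Alternatives were leaving out each library, a replicate block, no filter, DESeq2 size factors, the DESeq2 1.42.0 Wald test, limma 3.58.1 (voom with quality weights, and log2(FPKM + 1)), the slow fibre level as a covariate, an adjusted p of 0.10 and, chosen after seeing the data, library totals without TMM.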

Additional observations from a re-analysis of the deposited data

How the results depend on the processing

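No member passed an adjusted p of 0.05 in any of the 14 alternative fits, or at 0.10. Of the 33, 18 kept the sign of their log2 fold change in all 14. The medians of the 3 groups moved by less than the SD between replicates. That SD (0.32, 0.18 and 0.15) was larger than each median itself, so it cannot show a median to be stable. The glycolytic median ran from -0.23 without knockout library 3 to -0.01 without knockout library 1. That of the glycogen genes ran from -0.13 to 0.05 and so changed sign. Over all genes, edgeR called 0 higher and 1 lower (Tmem182); DESeq2's Wald test called 3 higher and 3 lower, the slow fibre covariate gave 1 higher, and leaving out 1 library gave 0 to 1 lower, with 0 without knockout library 2 (Tmem182 adjusted p = 0.0716) or wild-type library 3 (0.0529) by edgeR. The titles number the libraries but state no pairing, so the numbers were not taken as pairs. The same-numbered libraries deviated together with correlations of 0.524, 0.179 and -0.122, and 3 of 6 libraries were closest to their own number. These values do not settle whether the libraries were paired. With a replicate block, edgeR called 1 gene over all genes and 0 of the 33. No log2 fold change of the 33 changed sign, and that of Ugp2 was 0.36. At an unadjusted p under 0.05 by edgeR, 743 of all genes passed with the block and 453 without. Of the 33, 2 passed with the block and 0 without. For the 6 ratios an exact sign-flip test with a replicate block gave p-values of 0.25 to 0.75; with 3 pairs it cannot go below 0.25, so it says nothing about their stability.

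Signs turned as follows, and the cause was not tested. Over all genes the median was 0.00 in the main fit, 0.05 with limma on log2(FPKM + 1) and 0.08 by library totals. In each of these alternatives every turned value listed lay below that median. With limma-voom quality weights the log2 fold changes were 0.01 for Gpi1, 0.03 for Pfkfb4, -0.03 for Pgk1, -0.14 for Ldhb, 0.14 for Phka1, 0.13 for Phkb, 0.08 for Slc16a3, 0.08 for Bpgm, 0.05 for Pgm2, 0.12 for Bsg, 0.12 for Slc2a8, 0.44 for Slc2a3, -0.07 for Mdh2, -0.14 for Got2, -0.39 for Got1 and -0.09 for Txnip. With limma on log2(FPKM + 1) they were 0.01 for Fbp2, 0.03 for Gys1, 0.01 for Phka1, 0.04 for Phkb, 0.03 for Ppp1r3c, and 0.02 for Bpgm, Bsg and Slc2a8. Scaled by library totals they were 0.05 for Gys1, 0.03 for Phkb, 0.06 for Ppp1r3c, 0.04 for Bpgm, 0.01 for Bsg and 0.02 for Slc2a8. When the slow fibre level was a covariate they were 0.07 for Phka1, 0.07 for Phkb, 0.03 for Ppp1r3c, 0.05 for Bpgm, 0.02 for Bsg, 0.23 for Slc2a3, -0.02 for Mdh2, -0.09 for Got2 and -0.13 for Got1.

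Leaving out 1 library at a time gave log2 fold changes from -0.34 to 0.00 for Hk1, -0.23 to 0.01 for Gpi1, -0.04 to 0.34 for Pfkfb3, -0.22 to 0.05 for Fbp2, -0.23 to 0.06 for Tpi1, -0.08 to 0.13 for Pgk1, -0.37 to 1.17 for Ldhb, -0.45 to 0.03 for Gpd1, -0.12 to 0.02 for Gys1, -0.23 to 0.15 for Phka1, -0.15 to 0.18 for Phkb, -0.11 to 0.10 for Ppp1r3c, -0.24 to 0.01 for Stbd1 and -0.22 to 0.10 for Slc16a3. For the other genes they ran from -0.17 to 0.17 for Bpgm, -0.32 to 0.01 for Tigar, -0.32 to 0.09 for Pgm2, -0.01 to 0.19 for Gyg, -0.16 to 0.09 for Bsg, -0.18 to 0.08 for Slc2a8, -0.44 to 0.46 for Slc2a3, -0.09 to 0.08 for Mdh2, -0.14 to 0.12 for Got2, -0.42 to 0.36 for Got1, -0.05 to 0.10 for Txnip and -0.02 to 0.11 for Rab10. The difference in log2 ratio ran from -0.18 to 2.05 for Ldhb over Ldha and from -0.12 to 0.42 for Gys1 over Pygm. The depth of 16212341 to 18672630 counts gave even the scarcest of the 33, Slc2a1, at least 116 counts in each library, so the spread between libraries sets the intervals.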

Other observations

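Tbc1d1, a Rab GTPase-activating protein that holds GLUT4 vesicles back until it is phosphorylated, is singled out here after its values were seen. It was at 19.75, 10.10 and 11.04 FPKM among knockouts versus 9.63, 7.46 and 7.54 FPKM among wild types, so that the groups did not overlap, as in the 4.67% of all genes tested that were higher in every knockout library. Its fitted log2 fold change was 0.70 (SE 0.15, 95% CI 0.35 to 1.05). Its unadjusted p was 0.00179 and its adjusted p 0.994 by edgeR, and across the alternatives the adjusted p ran from 0.117 to 1.0. Without knockout library 1, which was the highest, the log2 fold change was 0.53.

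The 8 NADH shuttle genes had their highest value in knockout library 1 in 6 cases (75.0%, against 29.9% of all genes tested) and their lowest in wild-type library 2 in 7 cases (87.5%, against 22.7%). For the 33 genes of glycolysis, glycogen and transport, the shares were 24.2% highest in knockout library 1 and 18.2% lowest in wild-type library 2. The part of fibre composition in this was not tested.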
